A study of Mus musculus with 24 samples.

Results

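Aminoacyl-tRNA synthetases were followed in mouse liver after 24 h of sugar drinking or fasting. They were taken by name: 20 genes for the cytosolic enzymes and 16 for the mitochondrial ones, whose symbols end in 2, giving 36 genes of the 23966 that had a probe above the signal filter. The array carried 86 probes for them, of which 81 passed the filter, and all 36 genes were measured. Gene symbols are those of the array's design.

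The livers came from 24 male wild-type C57Bl/6J mice aged 8 weeks, kept on a 12 h light and dark cycle and killed at ZT16 (zeitgeber time 16, counted from lights on). Of the 4 groups of 6 mice, the first had chow with 20% fructose in the drinking water, the second chow with 20% glucose, the third was fasted, and the fourth had chow with tap water, each for 24 h. All fed mice had the same chow, so by design the sugar groups differ from the water group by the drink and from the fasted group by both food and drink. The amounts of chow and drink taken were not among the values used here, so a difference in chow intake cannot be told apart from the drink. One RNA sample per mouse was hybridised to a 1-colour Agilent array.

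Each aminoacyl-tRNA synthetase joins one amino acid to its matching transfer RNAs, and so supplies the ribosome with its substrates. Cytosolic protein synthesis and mitochondrial protein synthesis mostly use separate enzymes from separate nuclear genes, although in mammals Gars (glycine) and Kars (lysine) each make both forms and mitochondrial glutaminyl-tRNA is made without an enzyme of its own. A group of the cytosolic enzymes is held in the multisynthetase complex by scaffold proteins. When amino acids are short or the endoplasmic reticulum is stressed, the transcription factor ATF4 is known to raise the transcription of many cytosolic synthetase genes together with genes of amino acid synthesis and transport, and it does so at short response elements in their promoters.

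On the 24 arrays 32519 to 36272 probes were well above background. Arrays of a group correlated at 0.985 to 0.995 over the genes tested, against 0.970 to 0.994 for arrays of different groups. The 6 hepatocyte markers cleared background on each of the 24 arrays. Their summed level (linear signal relative to each array's 75th percentile) was 4369.8 to 4643 in fructose livers, wholly below the 4760.4 to 5582 of water livers, and 1 of the 6, Apoa1, was called as lower with fructose. With fasting 1 hepatocyte marker, Ttr, was called as lower. Of the other marker lists, the neutrophil sum (3 markers) was 0.206 to 21.4 in fasted livers, with fasted replicates 2 and 4 highest, against 0.555 to 1.23 in water livers, and 1 of the 3 markers, Retnlg, was called as higher. The acinar cell sum was 13.5 to 23.0 in fasted livers and 33.9 to 40.4 in water livers over 3 of 5 markers, of which Cela1 was called as lower (-1.60), while Amy2a5 (0.13) and Ctrb1 (0.032) were not called and the median of the 3 was 0.032; Cpa1 was above background on 1 array and Pnlip on 0 arrays. With fasting 3 of 5 endothelial markers were called as higher and 1 as lower, and 2 of 5 Kupffer cell and 1 of 4 adipocyte markers as higher. In the same comparison 2 of 4 cholangiocyte and 2 of 4 lymphocyte markers were called as lower, and 1 of 5 stellate cell markers as higher and 2 as lower. These counts stand beside 42.6% of all genes tested called with fasting, 21.7% as higher and 20.9% as lower. With either sugar 0 markers outside hepatocytes were called, beside 0.83% of all genes with glucose and 0.88% with fructose. The part of these cells in the synthetase values was not tested, but the counts without fasted replicates 2 and 4 stand beside the fasting results. In whole liver, fewer cells of a type and less RNA per cell cannot be told apart.

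The ATF4 and C/EBP response motif TGATGNAA, read on both strands, was looked for in the RefSeq promoters (GRCm38.p6, 250 bases before to 50 after the gene's start). Entries were matched for 27 of the 36 genes, 13 cytosolic and 14 mitochondrial; Cars, Hars, Lars, Nars, Rars, Vars, Wars, Hars2 and Pars2 had none. The motif was in 5 of the 13 cytosolic promoters (38.5%), those of Aars, Gars, Iars, Tars and Yars, in 0 of the 14 mitochondrial ones and in 1304 of all 32851 promoters (3.97%). A match describes these letters only and not binding. Aars, Yars and Iars were taken as genes called with fasting, and Gars and Tars, not called there, were added after their values were seen. The stretches of all 5 genes that hold the motif are shown. Each runs 5′ to 3′ on the gene's strand, with the match in capitals. They lie at chr6:55037941-55038000 (Gars, plus strand), chr15:11399659-11399718 (Tars, minus strand), chr8:111033704-111033763 and chr8:111033802-111033861 (Aars, plus strand), chr4:129189863-129189922 (Yars, plus strand) and chr13:49682090-49682149 (Iars, plus strand).
Gars: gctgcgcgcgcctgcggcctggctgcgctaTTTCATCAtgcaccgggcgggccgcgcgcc
Tars: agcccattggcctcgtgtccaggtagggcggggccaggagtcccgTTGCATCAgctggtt
Aars, upstream match: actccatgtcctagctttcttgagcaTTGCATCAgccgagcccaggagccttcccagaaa
Aars, match after the start: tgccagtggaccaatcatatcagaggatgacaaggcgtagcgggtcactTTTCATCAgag
Yars: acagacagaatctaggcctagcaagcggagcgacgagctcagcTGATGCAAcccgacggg
Iars: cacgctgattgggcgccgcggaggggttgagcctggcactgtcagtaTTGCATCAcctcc
The matches end 23 and 8 bases before the start of Gars and Tars, and those of Yars and Iars begin at bases 4 and 8, counting the first transcribed base as 1. The Aars matches begin at bases -112 and 10.

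Transcripts of 5 cytosolic synthetases, those for cysteine, methionine, glycine, asparagine and serine, were called as higher in mice that drank glucose. The calls for asparagine and serine lay just inside the threshold and depended on the processing. With limma and Benjamini-Hochberg adjustment over all genes tested, 5 of 20 cytosolic genes were called as higher at an adjusted p under 0.05 and 0 as lower, with 10 higher and 1 lower at an unadjusted p under 0.05. Of all genes tested 0.83% were called in either direction, 0.409% as higher and 0.421% as lower, and 11.4% had an unadjusted p under 0.05, 5.11% as higher and 6.33% as lower. Of the 16 mitochondrial genes 0 were called, with 0 higher and 4 lower at an unadjusted p under 0.05. The median log2 fold change was 0.11 over the cytosolic genes, -0.030 over the mitochondrial ones and -0.0047 over all genes.

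Levels below are log2 signals relative to each array's 75th percentile, given as the lowest, the median and the highest mouse. Cars, which charges cysteine transfer RNA, had 3.99, 4.21 and 4.54 in glucose livers, against 3.54, 3.64 and 3.80 in water livers. Every glucose liver was above every water liver, as for 2.36% of all genes tested with this comparison in either direction. The log2 fold change of Cars was 0.58 ± 0.11 (SE, n = 6 each; limma's adjusted p = 0.0124), a ratio of 1.49. All 3 probes for Cars (mm9 chr7:150743615-150743674, chr7:150750892-150750951 and chr7:150754990-150755326) were called as higher, by 0.58, 0.53 and 0.60.

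Mars, the methionine enzyme and a member of the multisynthetase complex, had 2.74, 2.80 and 3.05 in glucose livers and 2.28, 2.44 and 2.48 in water livers. The groups did not overlap, and the fold change was 0.45 ± 0.073 (limma's adjusted p = 0.00249). Gars, the glycine enzyme of both compartments, had 5.52, 5.58 and 5.78 in glucose livers and 5.17, 5.27 and 5.34 in water livers. These groups did not overlap either. Its change of 0.35 ± 0.054 carried the lowest adjusted p of the family in this comparison (limma, 0.00145). The calls of Cars, Mars and Gars held with any 1 of the 24 arrays left out.

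Sars, the serine enzyme, had 4.30, 4.40 and 4.58 in glucose livers and 4.09, 4.16 and 4.24 in water livers, without overlap. Nars, the asparagine enzyme, had 3.43, 3.67 and 3.93 in glucose livers and 3.22, 3.35 and 3.47 in water livers, where the lowest glucose liver lay inside the water range. Their log2 fold changes were 0.26 ± 0.062 and 0.31 ± 0.075, with limma adjusted p values of 0.0466 and 0.0493, just inside the threshold. The call of Sars held in 7 and that of Nars in 5 of the 24 fits with 1 array left out, and the count of cytosolic calls ranged over 3 to 6. For Sars those fits were the ones without glucose replicate 3, 4 or 5, fructose replicate 2 or 4, or fasted replicate 2 or 3, and for Nars those without glucose replicate 3, fructose replicate 4, fasted replicate 1 or 2, or water replicate 3. The calls of both were lost with median centring, without the filter on dim probes, with the mean of all probes, with the replicate number as a block and with only the 2 groups compared, and that of Sars also with slide as a block. Sars and Nars each had 1 probe that passed the filter, so the mean of all probes left their own values unchanged. In the fit over probes neither probe was called (limma's adjusted p = 0.0529 for Sars and 0.0537 for Nars). Of 12 alternatives that kept all slides, the call of Sars held in 6 and that of Nars in 7.

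**Figure D1:**
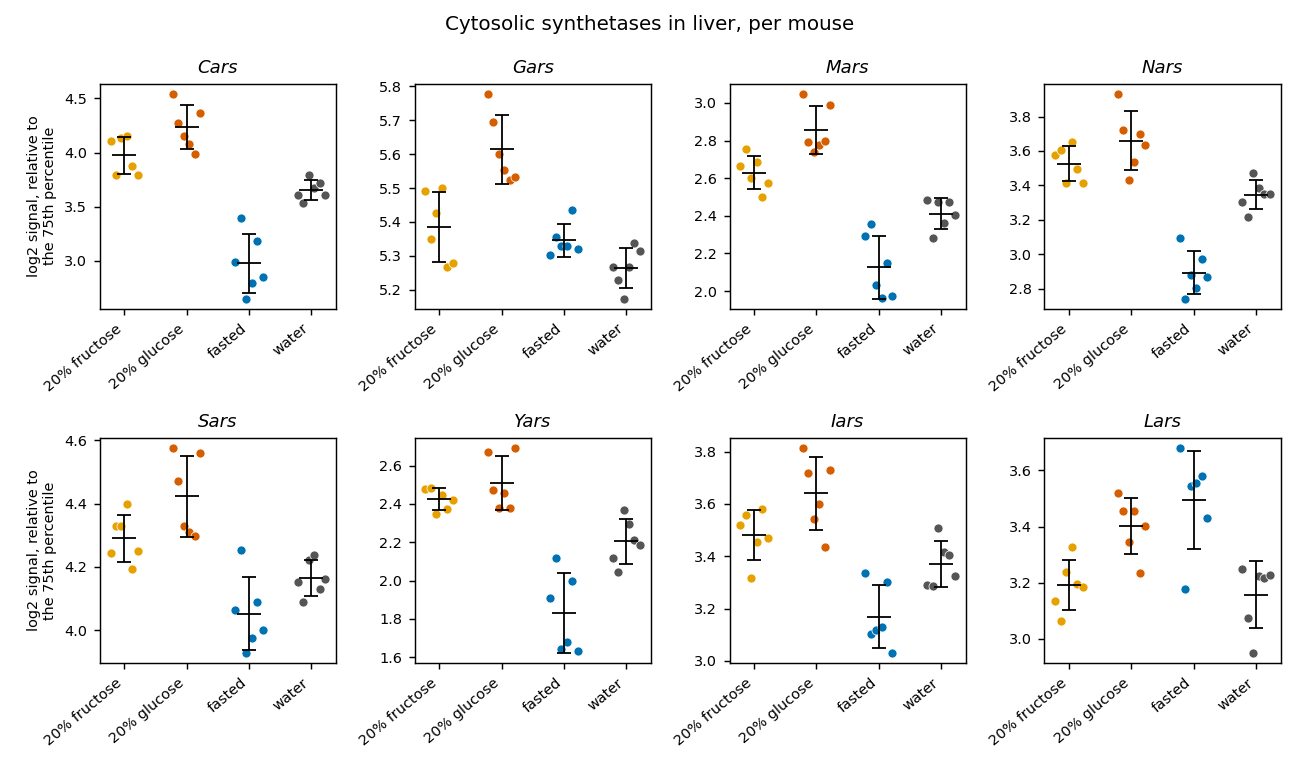
Log2 signal relative to each array's 75th percentile (vertical axes, which differ between panels) in each liver for 8 cytosolic synthetases, by group along the horizontal axes; points are mice, bars the mean ± SD of 6 mice. For Cars, Mars, Gars, Sars and Yars all glucose livers lie above all water livers. By group mean Cars, Mars, Nars, Sars, Yars and Iars are lowest in fasted livers, and Lars has its highest median there.

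Just outside the threshold lay Iars (isoleucine), with a log2 fold change of 0.27 ± 0.069 (limma's adjusted p = 0.0684), and Yars (tyrosine), with 0.30 ± 0.083 (adjusted p = 0.0906). Yars had 2.38, 2.46 and 2.69 in glucose livers and 2.05, 2.20 and 2.37 in water livers, and its groups did not overlap. These values come from the brightest of its 3 probes. The other 2, at mm9 chr4:128892794-128892853 and chr4:128874123-128874182, were called as higher in a fit over probes, by 0.52 and 0.41. Lars (leucine), Tars (threonine) and Vars (valine) had fold changes of 0.24, 0.21 and 0.15 with an unadjusted p under 0.05 and no call.

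Wars, the tryptophan enzyme, ran the other way: its log2 fold change was -0.29 ± 0.10 (limma's adjusted p = 0.224), with 4.07, 4.31 and 4.54 in glucose livers and 4.40, 4.57 and 4.73 in water livers. The ranges overlapped. The other 9 cytosolic genes (Aars, Dars, Eprs, Farsa, Farsb, Hars, Kars, Qars and Rars) had fold changes between -0.051 and 0.067. Among them Aars had 5.31, 5.39 and 5.48 in glucose livers, which overlapped the 5.17, 5.33 and 5.47 of water livers.

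The 3 mitochondrial synthetases of lowest p with glucose had negative fold changes, and limma called none of them. Nars2 (asparagine) had 0.14, 0.20 and 0.23 in glucose livers and 0.31, 0.40 and 0.48 in water livers, so that every glucose liver was below every water liver. Hars2 (histidine) was also without overlap, with 2.81, 2.84 and 2.91 in glucose livers and 2.97, 3.01 and 3.08 in water livers. Their fold changes were -0.21 ± 0.062 and -0.17 ± 0.053 (limma's adjusted p = 0.119 and 0.153), and that of Rars2 (arginine) was -0.17 ± 0.062 (adjusted p = 0.236). These 2 genes without overlap are 12.5% of the mitochondrial genes, and the 5 cytosolic ones (Cars, Gars, Mars, Sars and Yars) are 25%. Of all genes tested 2.36% were without overlap in this comparison.

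With fructose the same cytosolic genes had smaller values and 0 of 20 were called, while 5 were higher and 1 lower at an unadjusted p under 0.05. Of all genes tested 0.88% were called, 0.501% as higher and 0.38% as lower, and 15.9% had an unadjusted p under 0.05, 7.64% as higher and 8.25% as lower. Among the mitochondrial genes 1 of 16, Rars2, was called as lower. The median log2 fold change was 0.071 over the cytosolic genes, -0.068 over the mitochondrial genes and -0.012 over all genes. Fructose and glucose mice were both set against the same 6 water mice, so these results are not independent of those with glucose.

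Rars2, which charges mitochondrial arginine transfer RNA, had 1.99, 2.09 and 2.21 in fructose livers and 2.26, 2.37 and 2.43 in water livers. No fructose liver reached the water range, as for 1.77% of all genes in this comparison. Its log2 fold change was -0.26 ± 0.062 (limma's adjusted p = 0.0448), and the call held in 9 of the 24 fits with 1 array left out, those without fructose replicate 4 or 5, glucose replicate 1 or 4, fasted replicate 2, 3 or 5, or water replicate 3 or 5. Its 3 other probes had changes of -0.21, -0.12 and -0.20 and were not called.

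Pars2, the mitochondrial proline enzyme, had -0.27, 0.24 and 0.55 in fructose livers and 0.58, 0.68 and 0.79 in water livers, also without overlap. The change of -0.47 ± 0.12 was not called (limma's adjusted p = 0.0675). Wars had 4.05, 4.07 and 4.40 in fructose livers and 4.40, 4.57 and 4.73 in water livers, a change of -0.41 ± 0.10 that fell just outside the threshold (adjusted p = 0.0514). Its highest fructose liver was level with its lowest water liver.

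Mars had 2.50, 2.63 and 2.75 in fructose livers, against 2.28, 2.44 and 2.48 in water livers, and was the only cytosolic gene whose 2 groups did not overlap. Its fold change was 0.22 ± 0.073 (limma's adjusted p = 0.141). That of Cars was 0.32 ± 0.11 (adjusted p = 0.156), with 3.80, 3.99 and 4.15 in fructose livers, where the lowest liver was level with the highest water liver. Yars (0.22), Nars (0.18) and Gars (0.12) had an unadjusted p under 0.05 and no call, as had Fars2 (-0.18), Ears2 (-0.22) and Hars2 (-0.11) among the mitochondrial enzymes, which charge phenylalanine, glutamate and histidine. A dimmer Yars probe (mm9 chr4:128874123-128874182) was called as higher with fructose, by 0.41 (limma's adjusted p = 0.0469 in the fit over probes), and the remaining one, with 0.41 as well, was not (adjusted p = 0.0943).

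Set directly against each other, fructose and glucose livers gave no call: limma passed 0 of the 23966 genes (0%), and 1869 (7.8%) had an unadjusted p under 0.05. Of the 36 synthetases 9 had an unadjusted p under 0.05, 8 of them lower with fructose. Gars had 5.27, 5.39 and 5.50 in fructose livers and 5.52, 5.58 and 5.78 in glucose livers. It was the only synthetase whose groups did not overlap, which 0.647% of all genes showed, and its log2 fold change was -0.23 ± 0.054 (limma's adjusted p = 0.427). Mars, Lars and Cars had changes of -0.23, -0.21 and -0.26 (adjusted p = 0.479, 0.514 and 0.608). The values that were called with glucose and not with fructose are therefore not shown to differ between the sugars. The 95% interval of the difference, not adjusted for the number of genes, was -0.49 to -0.026 for Cars and -0.38 to -0.077 for Mars. For Gars it was -0.34 to -0.12, for Sars -0.26 to -0.0060 and for Nars -0.29 to 0.023.

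Fasting lowered members of both classes. Of the 20 cytosolic genes 11 were called as lower and 1 as higher, and of the 16 mitochondrial genes 7 were called as lower and 1 as higher. With 42.6% of all genes called in this comparison, 20.9% as lower and 21.7% as higher, the shares of the family called as lower were 55% and 43.8%. The median log2 fold change was -0.21 over the cytosolic genes, -0.18 over the mitochondrial genes and 0.020 over all genes. Leaving out fasted replicates 2 and 4, chosen after seeing their neutrophil markers, gave 10 cytosolic and 7 mitochondrial genes called as lower, with 1 higher in each class. These changes are also set against the water mice of the sugar comparisons.

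The largest fall among the synthetases was that of Wars, which had 3.11, 3.51 and 3.72 in fasted livers and 4.40, 4.57 and 4.73 in water livers. The highest fasted liver was well below the lowest water liver. Its log2 fold change was -1.08 ± 0.10 (limma's adjusted p = 9.84e-09), a level 2.11-fold lower, and its second probe (mm9 chr12:110104366-110104425) changed by -1.13. Its fold change was below 0 in all 3 comparisons with water livers and was called in this one.

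Cars, which rose with glucose, fell with fasting: it had 2.65, 2.92 and 3.39 in fasted livers, against 3.54, 3.64 and 3.80 in water livers. The log2 fold change was -0.68 ± 0.11 (limma's adjusted p = 2.62e-05), and all 3 probes were called as lower. Nars had 2.74, 2.87 and 3.10 in fasted livers and 3.22, 3.35 and 3.47 in water livers, without overlap, a change of -0.45 ± 0.075 (adjusted p = 3e-05). Mars was also called in both comparisons, as higher with glucose and lower with fasting, where its change was -0.28 ± 0.073 (adjusted p = 0.00279), with 1.96, 2.09 and 2.36 in fasted livers, where the highest lay inside the water range.

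Gars and Sars, called with glucose, were not called with fasting. Gars had 5.30, 5.33 and 5.44 in fasted livers and 5.17, 5.27 and 5.34 in water livers, a change of 0.081 ± 0.054 (limma's adjusted p = 0.251). Sars had 3.93, 4.03 and 4.25 in fasted livers and 4.09, 4.16 and 4.24 in water livers, a change of -0.11 ± 0.062 (adjusted p = 0.15). In both the ranges overlapped.

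Among the remaining cytosolic genes called as lower, Farsa, the catalytic chain of the phenylalanine enzyme, had 2.59, 2.72 and 2.85 in fasted livers and 2.92, 3.07 and 3.16 in water livers, without overlap. Its change was -0.32 ± 0.055 (limma's adjusted p = 4.44e-05), while Farsb, the partner chain, was at -0.20 ± 0.082 (adjusted p = 0.0601) on its brightest probe. Its dimmer probe (mm9 chr1:78469113-78469172) was called as lower, by 0.27 on the log2 scale (limma's adjusted p = 0.0093). Hars (histidine) and Yars fell by 0.37 each on the log2 scale and Vars by 0.27. Rars (arginine), Aars (alanine) and Iars had changes of -0.23, -0.22 and -0.20. Hars had 0.98, 1.07 and 1.41 in fasted livers and 1.39, 1.49 and 1.58 in water livers, where only fasted replicate 2 reached the water range.

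Lars, the leucine enzyme, which also senses leucine for the growth kinase mTORC1, was the 1 cytosolic gene called as higher. It had 3.18, 3.55 and 3.68 in fasted livers and 2.95, 3.22 and 3.25 in water livers, with 1 fasted liver inside the water range. The log2 fold change was 0.34 ± 0.075 (limma's adjusted p = 0.000765), and its second probe changed by 0.31 and was also called. Dars, Eprs, Kars, Qars and Tars, which charge aspartate, glutamate with proline, lysine, glutamine and threonine, had changes from -0.096 to 0.085 and were not called.

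**Figure D2:**
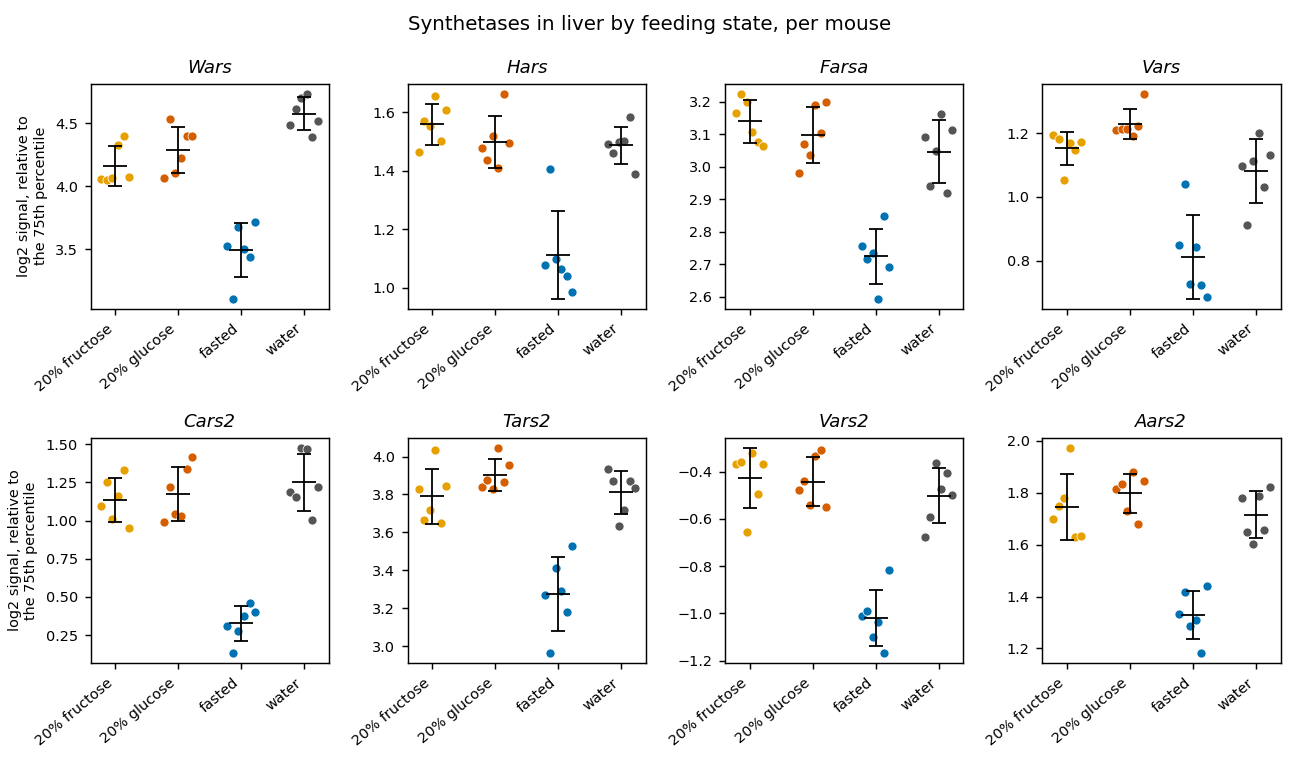
Log2 signal relative to each array's 75th percentile (vertical axes, which differ between panels) in each liver for 8 synthetases called as lower with fasting, by group along the horizontal axes; points are mice, bars the mean ± SD of 6 mice. In all panels but Hars and Vars every fasted liver lies below every water liver.

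Among the mitochondrial enzymes Cars2 fell most. It charges mitochondrial cysteine transfer RNA and is also known to make cysteine persulfides. Cars2 had 0.13, 0.34 and 0.46 in fasted livers and 1.00, 1.20 and 1.47 in water livers, without overlap, a log2 fold change of -0.92 ± 0.092 (limma's adjusted p = 2.64e-08) and a level 1.90-fold lower. Its second probe changed by -0.46 and was also called.

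Tars2 (threonine) had 2.97, 3.28 and 3.53 in fasted livers and 3.63, 3.85 and 3.93 in water livers. Vars2 (valine) had -1.17, -1.03 and -0.82 in fasted livers and -0.68, -0.48 and -0.36 in water livers. Aars2 (alanine) had 1.18, 1.32 and 1.44 in fasted livers and 1.60, 1.72 and 1.82 in water livers. In none of these 3 genes did the groups overlap, and the changes were -0.54 ± 0.082, -0.52 ± 0.071 and -0.39 ± 0.062 (limma's adjusted p = 1.23e-05, 2.46e-06 and 2e-05). All 4 probes of Tars2 were called as lower, by 0.43 to 0.54 on the log2 scale.

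Yars2 and Hars2 fell by 0.24 and 0.20 on the log2 scale, each without overlap, and Rars2 by 0.16 (limma's adjusted p = 0.00515, 0.00313 and 0.0412). The 6 mitochondrial genes without overlap are 37.5% of the class and the 4 cytosolic ones (Cars, Farsa, Nars and Wars) 20%, against 24.3% of all genes tested. Rars2 lost its call without fasted replicate 2 or without any of water replicates 1, 2, 4 and 6, and Iars lost it without fasted replicate 6 or water replicate 3. Rars2 also lost it in 5 of 12 alternatives (median centring, no filter on dim probes, the mean of all probes, only the 2 groups compared, and without fasted replicates 2 and 4), and Hars2 with the mean of all probes (adjusted p = 0.0939). Iars lost it with median centring and without fasted replicates 2 and 4. Apart from Rars2 and Iars, the calls of 18 genes held with any 1 array left out, and all 20 had the same sign on each of the 3 slides. Both counts reuse the arrays that gave the calls and are not independent of them.

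Iars2, the mitochondrial isoleucine enzyme, was called as higher, with 2.16, 2.36 and 2.53 in fasted livers and 1.92, 2.15 and 2.24 in water livers, a log2 fold change of 0.24 ± 0.076 (limma's adjusted p = 0.0143). Its 5 probes did not move together. A dimmer one at mm9 chr1:187135834-187135893 had -3.40, -3.12 and -2.92 in fasted livers and -2.92, -2.63 and -2.45 in water livers and was called as lower, by 0.50 on the log2 scale. The other 3 probes had changes of -0.15, -0.023 and 0.061 and were not called.

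Probes disagreed for other members too. The brightest Aars probe (mm9 chr8:113579376-113579434) changed by -0.22 with fasting, while a dim one at chr8:113566835-113566894 was called as higher, by 1.29, with -4.29, -3.31 and -2.52 in fasted livers and -5.30, -4.41 and -4.28 in water livers. Ears2, not called on its brightest probe (-0.067), had 2 dimmer probes called as lower, by 0.61 and 0.69 on the log2 scale. A dimmer probe was called as higher for Wars2 (0.33) and Eprs (0.37) and as lower for Lars2 (-0.23) and Farsb (-0.27). What the array's probes for 1 gene measure apart from each other was not tested.

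The mitochondrial genes without a call on their brightest probe were Ears2, Fars2, Lars2, Mars2, Nars2, Pars2, Sars2 and Wars2, with fasting changes from -0.22 to 0.044. Mars2, the methionine enzyme of the organelle, had the widest standard error of the family (0.17). Lars2 was measured in 5 fructose livers, since the spot of fructose replicate 2 was an outlier on its array and was left out.

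**Figure D3:**
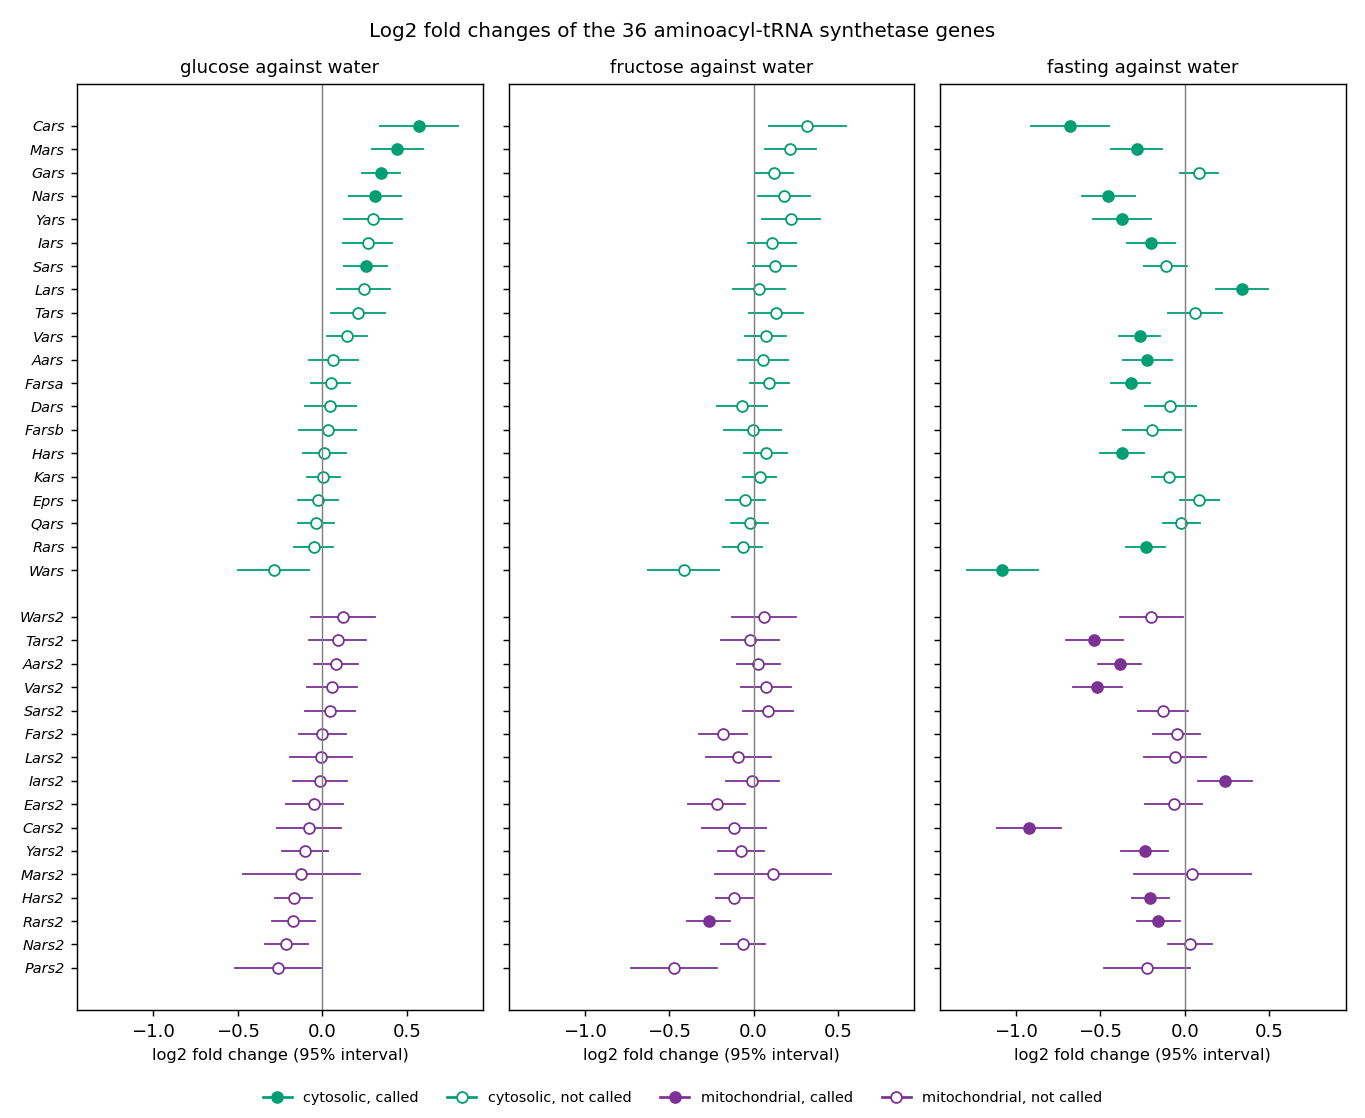
Log2 fold change with its 95% interval (horizontal axes) of each of the 36 synthetase genes (rows) in the 3 comparisons with water livers; green marks cytosolic and purple mitochondrial genes, and filled points mark limma's adjusted p under 0.05. With glucose the called genes are all higher and all in the cytosolic class, which includes Gars, the glycine enzyme of both compartments. With fasting 18 of 20 called genes, of both classes, are lower.

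Described over whole classes, cytosolic genes were highest in glucose livers and lowest in fasted livers more often than in any other group: by group means, 12 of 20 had their highest level with glucose and 15 of 20 their lowest with fasting. Among the 16 mitochondrial genes 7 were highest in water livers, 4 with glucose, 3 with fructose and 2 with fasting. Their lowest level fell in fasted livers for 8, in fructose livers for 5 and in glucose livers for 3. The group of highest or lowest level was not counted over all genes, of which 42.6% were called with fasting.

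The median over the cytosolic genes of each mouse, with every gene centred on its mean, was 0.0092, 0.063 and 0.14 in fructose livers, 0.056, 0.14 and 0.19 in glucose livers, -0.28, -0.20 and -0.13 in fasted livers and -0.11, -0.0089 and 0.057 in water livers. All fasted livers were below all fed ones, by little for 1 water liver. For the mitochondrial genes it was -0.046, -0.026 and 0.18 in fructose livers, 0.0059, 0.044 and 0.066 in glucose livers, -0.24, -0.077 and -0.0033 in fasted livers and 0.056, 0.091 and 0.13 in water livers. There 1 fructose liver stood above all others, and the sugar and fasted livers lay mostly below the water livers.

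**Figure D4:**
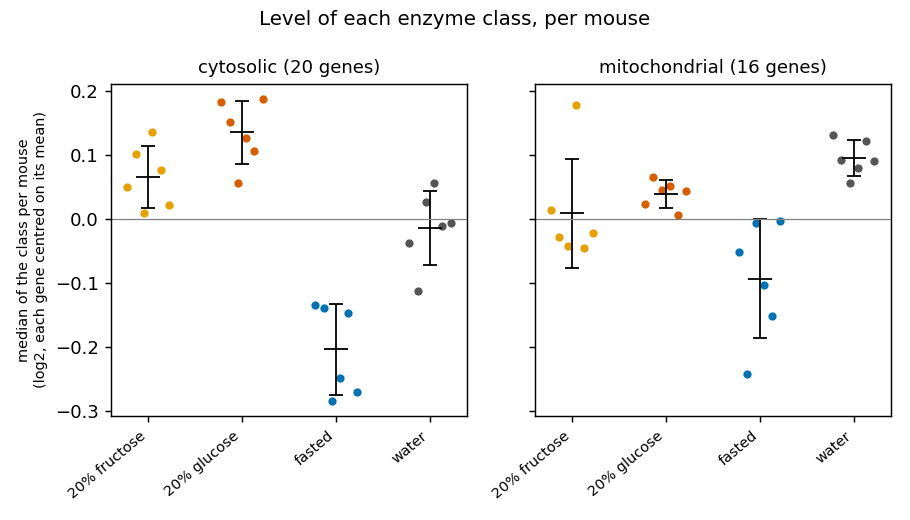
Median over the 20 cytosolic (left) and 16 mitochondrial (right) synthetase genes in each mouse, in log2 units with every gene centred on its mean over the 24 arrays (vertical axis), by group (horizontal axis); points are mice, bars the mean ± SD of 6. Taken by group, the cytosolic values are highest in glucose livers and lowest in fasted livers, and the mitochondrial values are highest in water livers. For the mitochondrial genes 1 fructose liver stands above all others, and the highest glucose liver lies inside the water range.

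Cytosolic and mitochondrial genes were paired by symbol, as Cars with Cars2, which gave pairs for 13 amino acids. Fars2, Ears2 and Pars2 were left unpaired, since the cytosolic genes for their amino acids (Farsa with Farsb, and Eprs) have symbols of another form. With glucose the log2 fold change of the cytosolic gene was above that of its mitochondrial partner in 11 of 13 pairs, with a median difference of 0.21. The widest pair was Cars and Cars2 (0.58 and -0.077). Aars and Wars were the exceptions. With fructose it was 11 of 13, with a median difference of 0.12, and the exceptions were Vars and Wars. With fasting the cytosolic value was above in 6 of 13, with a median difference of -0.074: Tars (0.059) stood above Tars2 (-0.54), and Wars (-1.08) below Wars2 (-0.20).

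The 8 enzymes of the multisynthetase complex (Dars, Eprs, Iars, Kars, Lars, Mars, Qars and Rars) had a median log2 fold change of 0.027 with glucose, and 1 of them, Mars, was called. The 12 cytosolic genes outside the complex had a median of 0.18, and 4 were called. Of all genes tested 0.83% were called with glucose. With fasting the medians were -0.091 inside the complex, where 3 genes were called as lower and 1 as higher, and -0.30 outside it, where 8 were called as lower. The genes called inside are 50% of the complex, beside 42.6% of all genes tested, 20.9% as lower and 21.7% as higher. The difference between genes inside and outside the complex was not tested. Of the 3 scaffold genes, limma called 0 with either sugar, and 0 had an unadjusted p under 0.05. With fasting Aimp2 had 3.62, 3.68 and 3.73 in fasted livers and 4.18, 4.38 and 4.49 in water livers, and its change of -0.69 ± 0.056 was called (limma's adjusted p = 1.25e-09). Eef1e1 was also called as lower (-0.33) and Aimp1 as higher (0.26).

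Genes that serve the same step were counted from lists. With glucose and with fructose 0 genes were called among 12 cytosolic translation factors, 10 mitochondrial translation factors, 12 genes of tRNA processing and export, 5 synthetase-like and editing genes, 4 genes of the mitochondrial amidotransferase and formyltransferase and 8 kinases, phosphatases and regulators of the translation factor eIF2. At an unadjusted p under 0.05 limma gave 7 with fructose and 5 with glucose among these 51 genes, 13.7% and 9.8% of them, against 15.9% and 11.4% of all genes tested. With fasting, where 42.6% of all genes were called, 21.7% as higher and 20.9% as lower, 29 of the 51 were called. Of these 4 cytosolic factors were called as higher and 1 as lower, led by Eif5 (0.36), and 2 mitochondrial factors as higher and 4 as lower. Tsfm, which recycles the mitochondrial elongation factor, had 0.80, 1.00 and 1.04 in fasted livers and 1.44, 1.50 and 1.51 in water livers, a change of -0.55. Of the 12 tRNA processing genes 4 were higher and 3 lower, led by Elac1 (0.88), a tRNA 3′ end endonuclease, and Mettl1 (-0.80), a tRNA methyltransferase. Mtfmt, which formylates the mitochondrial initiator tRNA, changed by -0.29. Among the synthetase-like genes 2 were higher, Tarsl2 by 0.37 and Dtd1 by 0.35, and 2 lower.

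Of 27 measured genes of the ATF4 and amino acid response, 9 were called as higher with glucose and 5 with fructose, and 0 as lower with either, where 0.83% and 0.88% of all genes were called. Psat1, an enzyme of serine synthesis, had -0.79, 0.75 and 1.19 in fructose livers and 0.64, 1.38 and 2.19 in glucose livers, against -3.06, -2.17 and -1.55 in water livers. Every sugar liver was above every water liver. Its log2 fold changes were 2.72 with fructose and 3.63 with glucose, those of Phgdh, the enzyme before it in the pathway, 2.12 and 3.36, and those of the hormone gene Fgf21 3.45 and 4.41 (limma's adjusted p at most 0.00523). Asns, asparagine synthetase, was not called, with changes of 1.07 and 1.76 (adjusted p = 0.219 and 0.0577). Nor was Atf4 itself, with -0.0087 and 0.21.

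With fasting the same list split, with 10 genes called as higher and 6 as lower, 59.3% of the list beside 42.6% of all genes. Fgf21 rose by 4.63, Cth, which makes cysteine from cystathionine, by 2.32, and Asns by 2.22 on the log2 scale, while Psat1 changed by -1.10. Asns had 1.59, 3.05 and 3.70 in fasted livers and -0.76, 0.70 and 1.57 in water livers, just without overlap. Of the kinases that act on eIF2, Eif2ak3, the sensor in the endoplasmic reticulum, changed by -1.28, and Eif2ak4, the sensor of uncharged tRNA, by -0.40; Impact, an inhibitor of that sensor, changed by 0.84. Of that list of 8 genes, 3 were called as higher and 3 as lower.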

How the data were processed

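Liver RNA of 24 mice was measured on 1-colour Agilent arrays. The deposited scanner files hold background-subtracted signals (intensity, linear scale) made with Agilent Feature Extraction 10.10.1.1, per the file headers; probe coordinates are those of mm9. The deposited series table holds log2 values of the same arrays, whose normalization is not given in the sources used here; it served as an alternative. The submitters' processing notes name limma.

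Spots of a probe were averaged on the log2 scale without outlier-flagged spots, and each array's 75th percentile over non-control probes was subtracted. Probes well above background on at least 6 of 24 arrays were kept (36229), and the brightest stood for its gene (23966 genes, named through RefSeq accessions where they matched, for 15655). limma 3.58.1 (R 4.3.3) was fitted to 4 group means over all 24 arrays, with Benjamini-Hochberg adjustment over all genes and calls under 0.05. Tests over single probes used the same fit on all kept probes. The number of arrays limits the precision. The labels give 1 sample per mouse. The procedure was tested on simulated data.

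Every member is accounted for. The called members of a class were named, or the 3 of lowest p where none was called, and up to 3 genes of each pathway list; genes beyond these were chosen after their values were seen. Members and lists were chosen with earlier results of these data known. Each of the 3 slides held 2 arrays of every group. Replicate numbers were not treated as pairs in the main fit. Deviations of same-numbered arrays of different groups correlated at -0.17 to 0.22 (mean 0.034), against a mean of -0.0067 for other pairs. Of the same-numbered pairs 9 of 36 were above 0.1, and of the others 25 of 180. These values cannot settle how the mice were numbered. Alternatives covered background correction, normalization, filter, probe choice, slide, replicate number, the deposited log2 table and arrays left out.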

Additional observations from a re-analysis of the deposited data

Results flagged for a closer look

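In 13 of 144 sets of 1 gene and 1 group, the highest or lowest mouse lay farther from its neighbour, as a share of the group's whole range, than Dixon's 95% value for the group size. Chance alone puts about 1 in 20 sets there. Fasted replicate 2 stood apart in 3 genes: it was lowest for Rars2 (1.91, next 2.25, ratio 0.887) and highest for Hars (1.41, against at most 1.099 in the others, ratio 0.727) and Wars2 (-0.91, next -1.27, ratio 0.664). Glucose replicate 3 was lowest for Lars2 (1.74, next 1.90, ratio 0.705), Ears2 (1.97, next 2.07, ratio 0.651), Farsb (2.56, next 2.80, ratio 0.65) and Kars (4.26, next 4.38, ratio 0.648). Among the other glucose livers, replicate 6 was highest for Vars (1.32, next 1.22, ratio 0.78) and replicate 4 for Rars2 (2.34, next 2.19, ratio 0.767). With fructose, replicate 4 was highest for Lars2 among 5 mice (2.07, next 1.79, ratio 0.791), replicate 1 highest for Mars2 (-2.37, next -3.17, ratio 0.708) and replicate 3 lowest for Vars (1.05, next 1.15, ratio 0.665). Water replicate 5 was highest for Tars (5.54, next 5.33, ratio 0.673).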

How the results depend on the processing

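With glucose, the 5 cytosolic calls became 3 with median centring, without the filter on dim probes, with the replicate number as a block and with only the 2 groups compared, and 0 within each slide; Cars, Gars and Mars held under all 12 alternatives that kept all slides, while Sars and Nars lost their calls in 6 and 5, slide as a block (Sars) and the mean of all probes (both) among them. Mitochondrial genes called as lower with glucose became 1 with only the 2 groups compared. With fructose, cytosolic genes called as lower became 1 with normexp, with the filter on all arrays, with the deposited log2 table, with slide as a block and without fasted replicates 2 and 4, and those called as higher 1 with the mean of probes. The 1 mitochondrial call with fructose became 2 with normexp and without fasted replicates 2 and 4, and 0 with median centring, no filter, the mean of probes, slide as a block, only the 2 groups compared and within each slide. With fasting, the 11 cytosolic calls as lower became 3, 1 and 3 within slides 1, 2 and 3 and the 7 mitochondrial ones 2, 3 and 2, where 2 arrays met 2; the 1 cytosolic call as higher became 0 within slides 2 and 3, and the 1 mitochondrial one 0 with median centring, the mean of probes and within each slide. The cytosolic minus the mitochondrial median (-0.034 with fasting, -0.035 for fructose against glucose) moved to -0.14 and 0.14 within slides 1 and 2 for fasting, and to 0.10 within slide 2 for the sugars. With the mean of all probes, the fasting changes of Aars and Iars2 turned to 0.24 (limma's adjusted p = 0.0599) and -0.075 (adjusted p = 0.332), where dimmer probes moved the other way, and the mitochondrial median with glucose turned to 0.034.

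With 1 array left out, cytosolic calls as higher with glucose ranged over 3 to 6 and mitochondrial calls as lower over 0 to 1; with fructose, cytosolic and mitochondrial calls as lower over 0 to 1 and 0 to 2; with fasting, calls as lower over 10 to 12 and 6 to 7 and calls as higher 1 in each class. The cytosolic minus mitochondrial median ranged over 0.13 to 0.17 with glucose, 0.11 to 0.17 with fructose, -0.076 to -0.017 with fasting and -0.073 to -0.014 between the sugars. All genes called ranged over 107 to 290 with glucose, 65 to 446 with fructose, 9528 to 10308 with fasting and 0 to 3 between the sugars. The replicate block changed no other count by over 1.5 times. All genes called with glucose (199) became 90 with median centring, 120 with no filter, 304 with only the 2 groups compared and 0 within each slide. Those with fructose (211) became 75, 79 and 74 under those alternatives, 545 with normexp, 367 with the deposited log2 table, 411 without fasted replicates 2 and 4 and 0 within each slide. Those with fasting (10211) became 4196, 4125 and 4128 within slides 1, 2 and 3, and those between the sugars 1 to 4 under 4 alternatives. The cause of these moves was not tested.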
